A study of Homo sapiens with 12 samples.

Results

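Guanylate-binding proteins (GBPs) and apolipoproteins L were followed in RT4 cells, an established human line from a papillary bladder tumour, together with the interferon regulatory factors IRF1 and IRF8. The set holds 10 genes: GBP1, GBP2, GBP3, GBP4, GBP5, IRF1, IRF8, APOL1, APOL2 and APOL6. They were matched by symbol among 61860 gene identifiers of one count table and 62700 of the other, and all 10 are in both. The 10 genes were chosen by their differences in these same 2 experiments, so their own values are given as a description, without tests.

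In the first experiment, 3 libraries came from cells transfected with an ITGB4 plasmid carrying a Flag tag and 3 from cells transfected with the empty Flag vector, ITGB4 being a laminin-binding integrin chain of epithelial cells. In the second, 3 libraries came from cisplatin-resistant RT4 cells with cisplatin treatment as their label, and 3 from parental RT4 cells labelled as treated with PBS. All 12 share the cell line. The media differ, McCoy's 5A in the first and MEM in the second, both with serum. No promoter, expression time, clone, cisplatin dose or exposure time is given in the labels, and the characteristics of replicates 2 and 3 of the first experiment name other integrin subunits in place of ITGB4 while the titles name ITGB4. The parental columns carry a name that no parental title holds and were assigned to that group by inference. Each experiment was compared with its own controls, with n = 3 libraries per group throughout, and nothing in the labels says that these were separate cultures.

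Interferon-gamma binds a receptor of IFNGR1 and IFNGR2 chains, whose kinases JAK1 and JAK2 start the signal. It reaches gamma-activated sites (GAS) in DNA and switches on IRF1, a transcription factor that, like the complex of STAT2 and IRF9 formed after type I and III interferons, acts on interferon-stimulated response elements (ISRE). GBPs are interferon-induced GTPases that coat bacteria and parasite vacuoles and help to start inflammasome signalling through caspases, and APOL proteins are interferon-induced lipid-binding proteins, of which APOL1 lyses trypanosomes.

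GBP1 to GBP5 lie in 1 cluster on chromosome 1, GBP3 at chr1:89006666-89022894, GBP1 at chr1:89052319-89065360, GBP2 at chr1:89106132-89150456, GBP4 at chr1:89181148-89198932 and GBP5 at chr1:89258950-89272804, all on the minus strand (GRCh38, GENCODE 29). APOL6 at chr22:35648395-35668409 and APOL1 at chr22:36253010-36267530 lie on the plus strand and APOL2 at chr22:36226203-36239954 on the minus strand. IRF1 is at chr5:132481609-132490798 on the minus strand and IRF8 at chr16:85898803-85922609 on the plus strand.

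Both response elements could be read in the RefSeq promoter windows (GRCh38.p14, 250 bases before to 50 after a start), which held an entry for 5 of the 10 genes, GBP1, GBP3, GBP4, IRF1 and IRF8. An ISRE was searched as GAAANNGAAA and, on the other strand, TTTCNNTTTC, and a GAS as TTCNNNGAA, which is its own complement. The stretches with a match are shown 5′ to 3′ on the gene's strand, because they are the sites by which the pathway is known to act on such genes, with the matching letters in capitals.
GBP1 (chr1:89065316-89065345): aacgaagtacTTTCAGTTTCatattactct
GBP3 (chr1:89022854-89022883): acTTCCTTGAAagaagtacTTTCAGTTTCa
GBP4 (chr1:89198923-89199022): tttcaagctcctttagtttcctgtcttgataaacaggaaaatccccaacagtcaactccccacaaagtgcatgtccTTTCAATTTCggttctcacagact
IRF1 (chr5:132490844-132490943): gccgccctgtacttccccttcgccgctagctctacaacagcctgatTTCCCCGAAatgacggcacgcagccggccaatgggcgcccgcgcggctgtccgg
The ISRE letters of GBP1 lay at bases -127 to -118 from the RefSeq start, which is inside an exon in GENCODE 29, where the gene begins further upstream. In GBP3 they lay at bases 3 to 12, with GAS letters at -15 to -7. GENCODE 29 begins this gene upstream too, and all 30 bases shown are exonic there. In GBP4 the ISRE letters spanned the start, from -4 to 6. GBP1 and GBP3 share the run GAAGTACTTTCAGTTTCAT of 19 bases across this site. The GAS letters of IRF1 lay at -124 to -116, and neither window of IRF8 held a match. The 2 motifs did not overlap in any of these windows. Of 35116 promoter windows of the same length, 3.57% held the ISRE letters and 7.66% the GAS letters. A match describes these letters and does not show that a factor binds there.

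Libraries held 22701466 to 33352045 counted read pairs in the first experiment and 31824582 to 38199946 counts in the second. Values are CPM, read counts relative to the total of their library after TMM scaling, which allows for library composition. ITGB4 itself was at 1379 to 1485 CPM with the plasmid, against 858 to 879 CPM with the vector, a 1.64-fold difference, and at 831 to 848 CPM in resistant cells, against 598 to 602 CPM in parental cells. Changes were widespread: by edgeR's quasi-likelihood test at an adjusted p under 0.05, 6185 genes were called higher and 6049 lower of 16950 tested with the plasmid, and 4520 higher and 4679 lower of 16875 tested in resistant cells. With library sizes alone in place of TMM, the resistant split became 6548 higher and 3111 lower, since the median of all genes moved to 0.18 on the log2 scale, and with upper quartile factors 5761 and 3584 at a median of 0.12. Of 13 urothelial and epithelial marker genes, 11 reached 1 CPM in each group, with KRT20 at 0 and UPK1A below 1 CPM. Of 10 leukocyte markers 1 did, the integrin ITGAM, and the pan-leukocyte marker PTPRC was below 0.05 CPM.

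GBP5, which promotes inflammasome assembly, showed the widest difference of the set. It was at 81.6, 79.3 and 84.7 CPM in the plasmid libraries, against 3.99, 3.48 and 3.34 CPM in the vector libraries. The vector values rest on 105, 100 and 113 counts. The groups were far apart, with a 22.9-fold higher mean level fitted in plasmid cells (log2 fold change 4.52 ± 0.06; here and below, ± after a log2 fold change is an approximate standard error from the test's F statistic, and after a mean it is the SD). In resistant cells GBP5 was at 58.1, 64.8 and 62.1 CPM, against 115, 115 and 122 CPM in parental cells, 1.90-fold lower (log2 -0.93 ± 0.05). The groups did not overlap there either. Because these contrasts chose the set, nothing is read from such gaps here or below. The share of all genes without overlap was not counted.

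GBP4 and GBP1 followed in the plasmid experiment. GBP4, a GBP without a prenylation motif, was at 572, 616 and 621 CPM with the plasmid, against 117, 113 and 116 CPM with the vector (log2 2.39 ± 0.03, 5.23-fold). It was also the member with the deepest decrease in the second experiment, at 306, 331 and 336 CPM in resistant libraries, against 1043, 1039.6 and 1015 CPM in parental ones (log2 -1.67 ± 0.04, 3.18-fold lower). The groups did not overlap in either experiment.

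GBP1, the founding and best studied GTPase of the family, was at 438, 441 and 441 CPM with the plasmid, against 96.2, 97.7 and 96.2 CPM with the vector (log2 2.19 ± 0.03, 4.55-fold). In resistant libraries it was at 484, 507 and 485 CPM, against 1155, 1143 and 1139 CPM in parental ones (log2 -1.22 ± 0.03, 2.33-fold lower). The groups did not overlap. GBP1 shares 13.3% of its 50-base words with other genes, most with its pseudogene GBP1P1, so some of its reads are uncertain. GBP1P1 was at 33.0 to 35.9 CPM with the plasmid, against 7.90 to 8.18 CPM with the vector, and at 10.6 to 13.4 CPM in resistant cells, against 33.7 to 36.7 CPM in parental cells.

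GBP3, a close paralogue of GBP1, was at 237, 243 and 235 CPM with the plasmid, against 91.9, 91.2 and 86.8 CPM with the vector (log2 1.41 ± 0.03). It was at 219, 241 and 226 CPM in resistant cells, against 587, 592 and 592 CPM in parental cells (log2 -1.37 ± 0.04). These 2 changes had nearly the same size in opposite directions.

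GBP2, a prenylated GBP like GBP1 and GBP5, moved least of the 5 with the plasmid, at 172, 172 and 163 CPM, against 99.8, 103 and 104 CPM with the vector (log2 0.72 ± 0.03, 1.65-fold). In the resistance experiment it lay in the middle of the 5, at 200.4, 206 and 199.7 CPM in resistant cells, against 490.2, 478 and 475 CPM in parental cells (log2 -1.25 ± 0.04, 2.38-fold lower). The ordering of the GBPs by size of change was therefore not the same in the 2 experiments. With the plasmid it ran GBP5, GBP4, GBP1, GBP3 and GBP2, and in resistant cells GBP4, GBP3, GBP2, GBP1 and GBP5, where GBP2 and GBP1 differed by less than their standard errors.

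**Figure D1:**
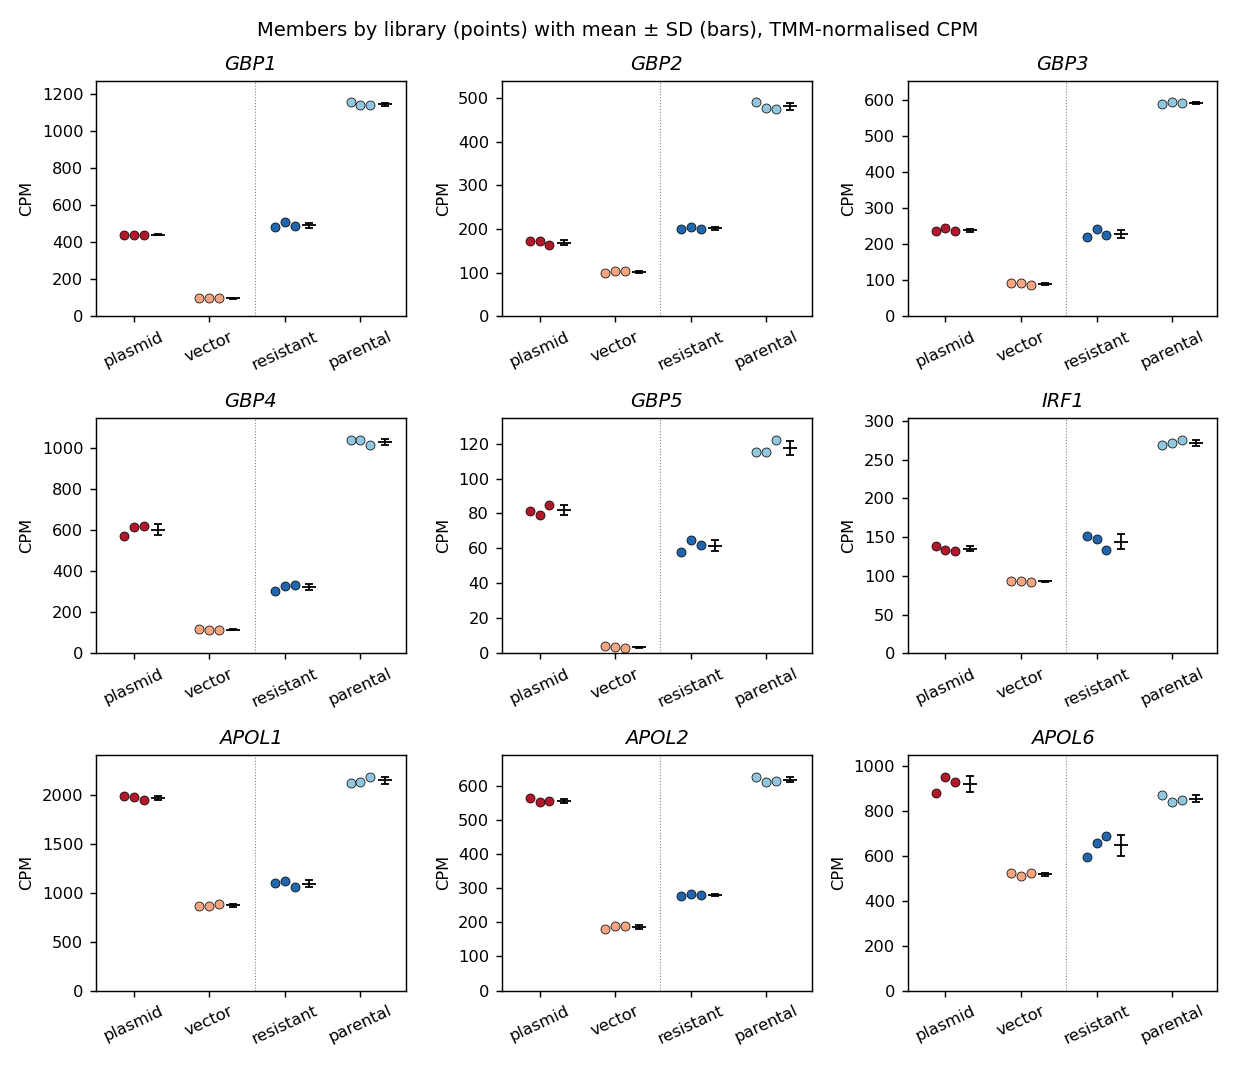
TMM-normalised CPM of the 9 detected genes of the set (vertical axes, each from 0) in the 12 libraries, with the mean and SD of 3 libraries beside the points. Plasmid lies above vector and resistant below parental in each panel, and the vector points of GBP5 sit near 0 at 3.34 to 3.99 CPM.

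IRF1, the transcription factor of the set, was at 139, 134 and 133 CPM with the plasmid, against 93.3, 93.3 and 92.1 CPM with the vector. This was the smallest difference of the set in that experiment (log2 0.54 ± 0.03, 1.45-fold). In resistant cells it was at 151, 148 and 133 CPM, against 268, 271 and 276 CPM in parental cells (log2 -0.91 ± 0.05, 1.89-fold lower). Neither pair of groups overlapped. Exons of other genes cover 22.0% of the IRF1 exon bases, partly those of the antisense gene IRF1-AS1. The first table was counted without a strand option and the setting of the second is not given, so their reads cannot be told apart. IRF1-AS1 was at 10.1 to 10.7 CPM with the plasmid, against 5.39 to 6.39 CPM with the vector, and at 10.4 to 12.2 CPM in resistant cells, against 16.0 to 17.6 CPM in parental cells.

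IRF8, the regulator best known from myeloid and B cells, was not detected at this depth. It had 0 counts in the plasmid, resistant and parental libraries and 1 count in 1 vector library. A count of 0 allows up to 3 counts per library, which is 0.0943 to 0.132 CPM in the plasmid libraries, 0.0900 to 0.116 in the vector libraries, 0.0827 to 0.0943 in the resistant libraries and 0.0785 to 0.0857 in the parental libraries, for counting error only. It did not pass the low-count filter in either experiment and is left out of every summary of the other 9.

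APOL1, the secreted member of its family, was the most abundant of the set. It was at 1985, 1980.0 and 1945 CPM with the plasmid, against 860.5, 866 and 889 CPM with the vector (log2 1.18 ± 0.02, 2.26-fold). It was at 1099, 1124 and 1055 CPM in resistant cells, against 2123, 2133 and 2185 CPM in parental cells (log2 -0.97 ± 0.03, 1.97-fold lower). The plasmid and parental libraries were thus the high ones of their experiments.

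APOL2, an intracellular relative encoded beside it, was at 563, 551 and 554 CPM with the plasmid, against 180.2, 189 and 190.0 CPM with the vector (log2 1.58 ± 0.03, 2.98-fold). It was at 278, 284 and 279.6 CPM in resistant cells, against 627, 612 and 615 CPM in parental cells (log2 -1.14 ± 0.04, 2.20-fold lower). Of the 3 APOL genes of the set it showed the largest difference in each experiment.

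APOL6, reported to promote apoptosis when overexpressed, had the smallest. It was at 881, 953 and 929 CPM with the plasmid, against 522, 511 and 523 CPM with the vector (log2 0.83 ± 0.03, 1.78-fold). In resistant cells it was at 596, 659 and 687 CPM, against 873, 841 and 850.0 CPM in parental cells (log2 -0.40 ± 0.04, 1.32-fold lower). The gap between the highest resistant and the lowest parental library was the narrowest of the set relative to its level, but the groups did not overlap.

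All 9 genes that passed the filter were called higher with the plasmid, where 36.5% of all genes tested were, and all 9 were called lower in resistant cells, where 27.7% were. Since these contrasts chose the genes, nothing is read from those counts or from the medians of the 9, which had to stand apart. The median log2 fold change of the 9 was 1.41 with the plasmid, against 0.0017 over all genes tested. In resistant cells it was -1.14, against 0.018 over all genes tested. The smallest differences inside the set were those of IRF1 with the plasmid and of APOL6 in resistant cells, and both are under 1.5-fold.

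The levels of the 4 groups are set side by side only as a description, because the tables were counted and scaled separately. The vector group was lowest for each of the 9 detected genes. Parental cells were highest for 8 of them, and the exception was APOL6, with 921 ± 36 CPM with the plasmid and 855 ± 16 CPM in parental cells. Plasmid and resistant cells took the middle places. For GBP3 they were at 239 ± 4.2 and 229 ± 11 CPM and for IRF1 at 135 ± 3.4 and 144 ± 9.4 CPM, and in those 2 genes the ranges overlapped. For GBP1 and GBP2 resistant cells lay above plasmid cells, and for GBP4, GBP5, APOL1 and APOL2 plasmid cells lay above resistant cells. No other neighbouring ranges overlapped. The controls of the 2 experiments therefore stood apart, by amounts that varied with the gene. GBP5 averaged 117 ± 4.2 CPM in parental and 3.61 ± 0.34 CPM in vector cells, and GBP1 1146 ± 8.0 and 96.7 ± 0.85 CPM. The gap was smaller for APOL1, at 2147 ± 33 and 872 ± 15 CPM, and for APOL6, at 855 ± 16 and 519 ± 6.8 CPM.

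**Figure D2:**
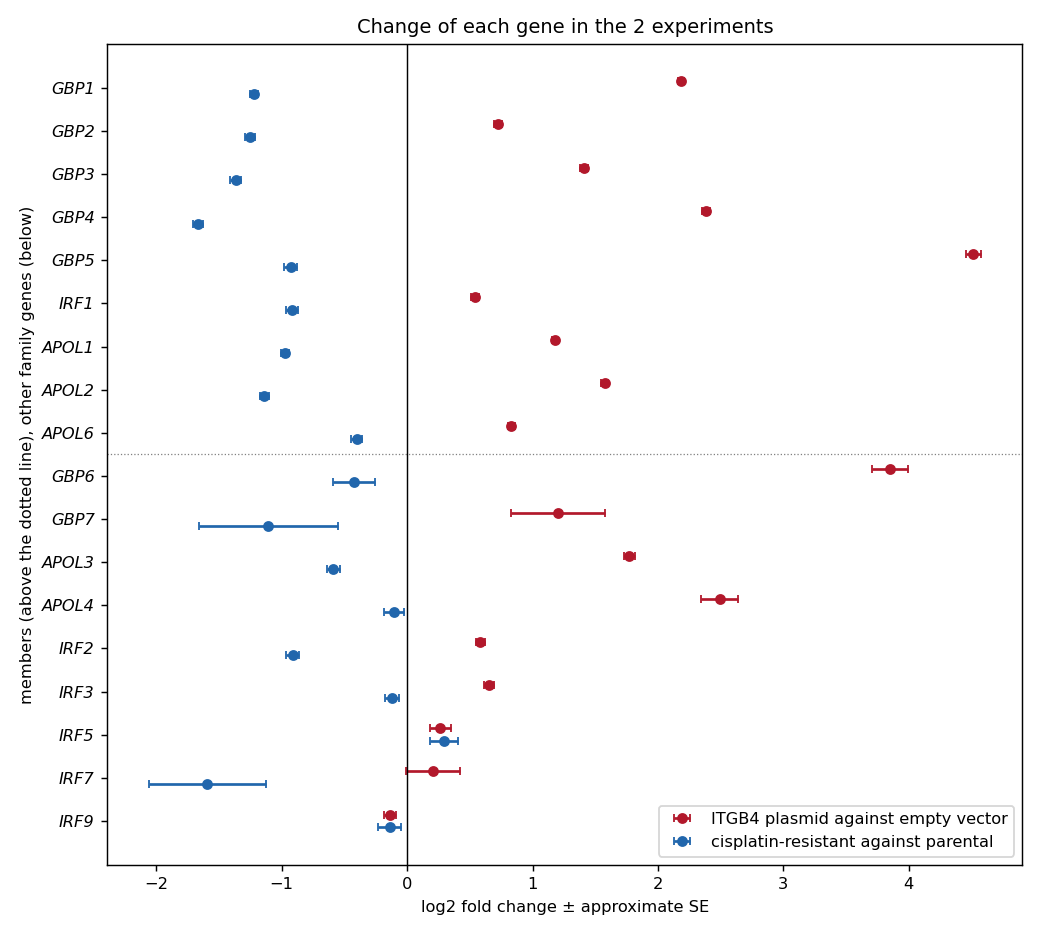
Log2 fold change with its approximate standard error for the 9 detected genes of the set and 9 other family genes, plasmid against vector in red and resistant against parental in blue. The set lies right of 0 in red and left of 0 in blue, while IRF5 and IRF9 have both points on 1 side.

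Per kilobase of exon, which allows levels of different genes to be compared, APOL1 was first in each group, at 560 ± 6.2 CPM per kb in plasmid cells, 248 ± 4.3 in vector cells, 310 ± 9.9 in resistant cells and 610 ± 9.5 in parental cells. Among the GBPs the order depended on the group. GBP4 led in plasmid cells, at 98.4 ± 4.4 CPM per kb, with GBP1 at 88.1 ± 0.38, whereas GBP3, GBP1 and GBP4 lay within 18.5 to 21.4 CPM per kb in vector cells. GBP1 led in resistant cells, at 98.5 ± 2.6 CPM per kb, and in parental cells, at 229 ± 1.6. GBP5 was last of the 5 in each group. These ranks depend on the length used: with the longest transcript in place of all exons, GBP1 led in each group, at 145 CPM per kb in plasmid, 31.9 in vector, 162 in resistant and 377 in parental cells.

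The make-up of the family differed between the groups. The summed level of GBP1 to GBP5 was 1532 ± 28 CPM in plasmid cells and 408 ± 1.7 CPM in vector cells, and 1309 ± 41 CPM in resistant cells and 3367 ± 23 CPM in parental cells. Shares of the sum per kilobase use the length of all exons and, like the ranks above, depend on it. With the longest transcript, GBP1 lay above GBP4 in plasmid cells, at 145 and 98.4 CPM per kb. Of the sum per kilobase of all exons, GBP4 held 34.1 to 36.1% with the plasmid and 24.3 to 25.1% with the vector. GBP2 held 9.26 to 10.0% with the plasmid and 20.9 to 21.9% with the vector, and GBP5 held 3.45 to 3.71% and 0.545 to 0.645%. In the second experiment the GBP1 share was 39.8 to 40.9% in resistant cells and 36.5 to 36.7% in parental cells, and the GBP4 share 21.1 to 22.4% and 26.6 to 27.1%. GBP3 was at 21.5 to 22.2% in resistant and 21.7 to 22.1% in parental cells, and those ranges overlapped. The APOL1 share of the 3 APOL genes lay between 66.9 and 70.4% in all 12 libraries, with a summed level of 3447 ± 32 CPM in plasmid, 1577 ± 21 CPM in vector, 2020 ± 47 CPM in resistant and 3620 ± 32 CPM in parental cells.

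**Figure D3:**
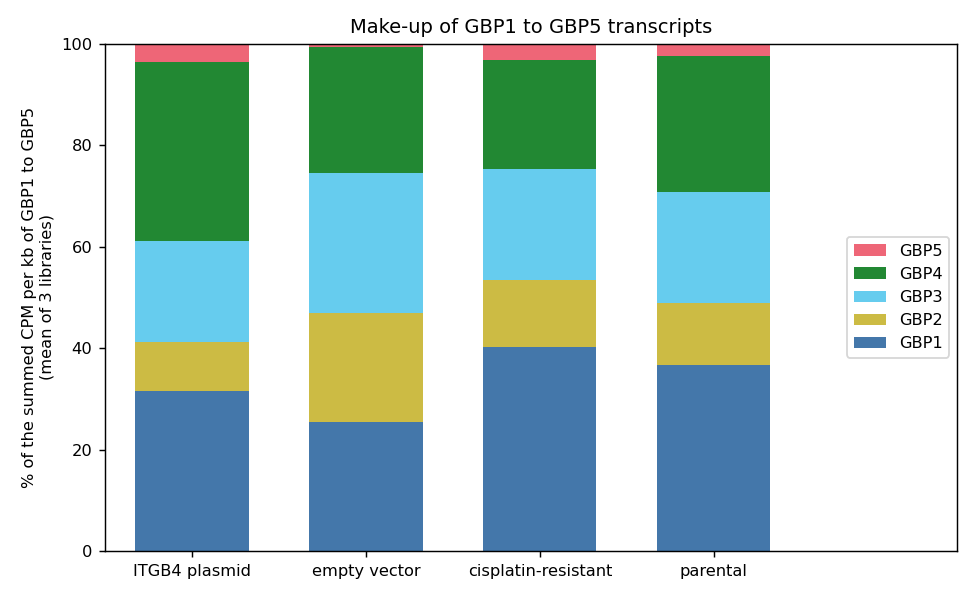
Share of each gene in the summed CPM per kb of GBP1 to GBP5, as the mean of 3 libraries per group, stacked to 100%. Lengths are those of all exons, and the shares depend on that choice. The GBP5 band is 3.61% in plasmid, 0.583% in vector, 3.10% in resistant and 2.30% in parental cells, and the GBP2 band is widest in vector cells, at 21.5%.

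The other genes of the 3 families were tested by the same edgeR fits, with p-values adjusted over all genes. They were listed with earlier results of these data known. GBP6 rose with the plasmid, to 9.46 ± 0.31 CPM, against 0.642 ± 0.19 CPM with the vector (log2 3.85 ± 0.14, adjusted p = 2.54e-13). It fell to 3.31 ± 0.30 CPM in resistant cells, against 4.44 ± 0.56 CPM in parental cells (log2 -0.42 ± 0.17, adjusted p = 0.0421), a call that 10 of its 15 alternatives lost, with adjusted p up to 1. GBP7, whose exons overlap those of GBP2 so that its few reads are uncertain, was at 0.477 ± 0.15 CPM with the plasmid and 0.203 ± 0.03 CPM with the vector (adjusted p = 0.00874). Without plasmid replicate 2 its adjusted p was 0.0641, and in resistant cells it was not called (adjusted p = 0.101).

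APOL3 rose with the plasmid, to 78.7 ± 3.0 CPM, against 23.1 ± 1.1 CPM with the vector (log2 1.77 ± 0.04, adjusted p = 1.09e-15), and fell to 68.8 ± 2.0 CPM in resistant cells, against 103 ± 5.2 CPM in parental cells (log2 -0.59 ± 0.05, adjusted p = 3.19e-08). APOL4 rose with the plasmid as well, to 5.41 ± 0.42 CPM, against 0.962 ± 0.19 CPM with the vector (log2 2.49 ± 0.15, adjusted p = 1.22e-10). In resistant cells it was not called, at 23.0 ± 0.80 CPM, against 24.7 ± 2.0 CPM in parental cells (adjusted p = 0.276). APOL5 had 0 counts in the first experiment and 1 and 2 counts in all in resistant and parental libraries. The changes of GBP6, APOL3 and APOL4 differed between the experiments (adjusted p = 1.98e-12, 1.14e-16 and 2.89e-11), in a fit in which 61.8% of genes differed.

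Of the 6 other interferon regulatory factors that passed the filter, 3 rose and 2 fell with the plasmid, where 36.5% of all genes rose and 35.7% fell. In resistant cells 1 rose and 3 fell, where 26.8% of all genes rose and 27.7% fell. IRF2, a relative of IRF1 that binds the same element, rose to 70.6 ± 0.58 CPM with the plasmid, against 47.1 ± 1.2 CPM with the vector (log2 0.58 ± 0.03, adjusted p = 1.01e-10). It fell to 46.9 ± 1.5 CPM in resistant cells, against 88.2 ± 2.7 CPM in parental cells (log2 -0.91 ± 0.05, adjusted p = 1.28e-10). IRF3, which turns on interferon genes after nucleic acid sensing, rose with the plasmid (log2 0.66 ± 0.04, adjusted p = 1.30e-10) and was not called in resistant cells (log2 -0.12, adjusted p = 0.0699). It was called lower there without resistant replicate 1 (log2 -0.19, adjusted p = 0.000745) and without a filter on low counts (adjusted p = 0.0421). Against a change over 1.5-fold, 0 of the 6 were called with the plasmid and 1 was called lower in resistant cells.

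IRF5 rose slightly in both experiments (adjusted p = 0.00921 and 0.037), though its plasmid and vector ranges overlapped and the calls were lost without vector replicate 1 (adjusted p = 0.0562) and without any 1 of 5 libraries of the second experiment. IRF9, the DNA-binding partner of STAT2, fell with the plasmid by 0.13 on the log2 scale (adjusted p = 0.023), a call lost without plasmid replicate 3 (adjusted p = 0.16) and without vector replicates 2 or 3 (adjusted p = 0.058 and 0.134), and was not called in resistant cells (adjusted p = 0.205), though it was called lower there without resistant replicate 3 (log2 -0.23, adjusted p = 0.0442). IRF7 was not called with the plasmid (log2 0.21, adjusted p = 0.404) but was called higher without vector replicate 3 (log2 0.63, adjusted p = 0.00394). It was called lower in resistant cells (log2 -1.59 ± 0.46, adjusted p = 0.00761) with overlapping groups, at 2.99 ± 1.7 and 9.11 ± 8.4 CPM, and lost the call without parental replicate b, where its log2 fold change was -0.52 and its adjusted p 0.203. IRF4 had 1 count in the plasmid libraries, 5 in the vector libraries and 0 in the second experiment.

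Neighbours of the 2 clusters were read in chromosome order. The 3 nearest tested protein-coding genes on either side of each cluster were added after the data had been seen. Around the GBP cluster, log2 fold changes of these 6 genes with the plasmid ran from -0.19 for LRRC8B to 0.79 for LRRC8C, and those in resistant cells from -0.82 for LRRC8C to 0.05 for KYAT3. LRRC8C, of the volume-regulated anion channel family, rose to 12.7 CPM with the plasmid, against 7.38 CPM with the vector (adjusted p = 6.14e-08), a change as large as that of GBP2, and fell to 3.41 CPM in resistant cells, against 6.03 CPM in parental cells (adjusted p = 0.000302). Around the APOL cluster, the 6 neighbours ran from -0.71 for FOXRED2 to 0.82 for MCM5 with the plasmid and from -0.32 for HMOX1 to 1.247 for MCM5 in resistant cells. Beside APOL1, the myosin gene MYH9 was at 1353 CPM with the plasmid, against 1404 CPM with the vector (log2 -0.05), and at 590.3 CPM in resistant cells, against 640.3 CPM in parental cells (log2 -0.12). Inside the APOL cluster RBFOX2, a splicing regulator, fell in resistant cells, to 20.9 CPM, against 47.6 CPM in parental cells (log2 -1.19 ± 0.19, adjusted p = 4.8e-05). With the plasmid it rose to 39.5 CPM, against 30.1 CPM with the vector (log2 0.39 ± 0.12, adjusted p = 0.00655). That call was lost with DESeq2 (adjusted p = 0.123) and in the edgeR fit of all 12 libraries (adjusted p = 0.12).

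**Figure D4:**
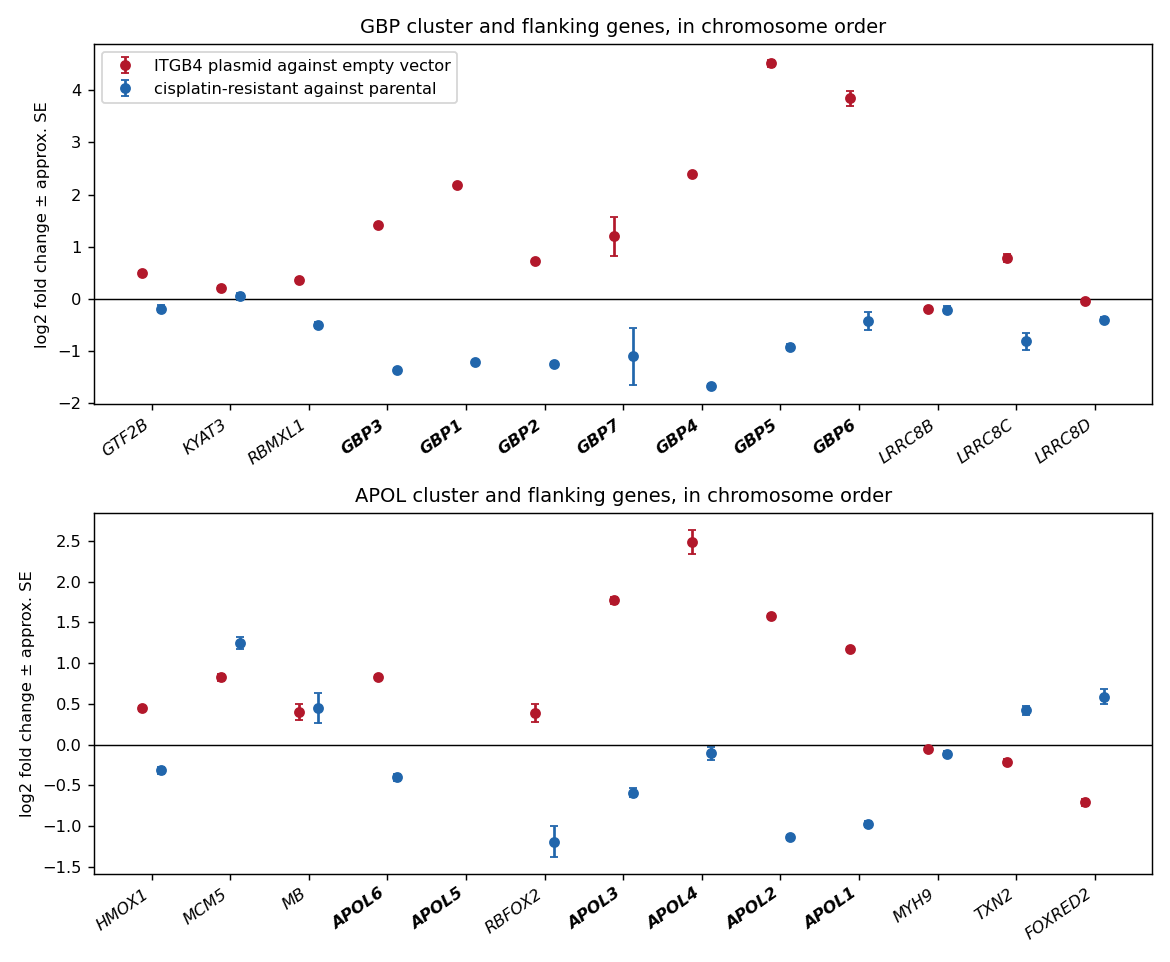
Log2 fold change with its approximate standard error for the genes of the GBP cluster (top) and the APOL cluster (bottom) and 3 tested neighbours on either side, spaced evenly in chromosome order, with family genes in bold. Family genes reach 4.52 in red and -1.67 in blue, and APOL5 has no point because it did not pass the filter.

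The pathway above these genes was followed through lists of 75 genes that are not in the set, 2 of them in 2 lists. Each count of calls was also taken against a change over 1.5-fold, a stricter test that 11.1% of all genes passed as higher and 11.4% as lower with the plasmid, and 6.17% as higher and 6.31% as lower in resistant cells. Of 10 genes of the interferon-gamma receptor and its signalling, 6 rose and 2 fell with the plasmid (median log2 0.44), where 36.5% of all genes rose and 35.7% fell, and all 10 fell in resistant cells (median log2 -0.55), where 27.7% of all genes fell. With library sizes alone or upper quartile factors, 9 of the 10 fell there. Against a change over 1.5-fold, 3 were higher and 0 lower with the plasmid, and 4 were lower in resistant cells. JAK2 was at 64.4 ± 4.9 CPM with the plasmid, against 27.3 ± 0.73 CPM with the vector (adjusted p = 8.7e-13), and fell to 27.2 ± 1.2 CPM in resistant cells, against 78.9 ± 0.52 CPM in parental cells (adjusted p = 3.81e-13).

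SOCS3, a STAT-induced inhibitor of cytokine receptors, rose 4.03-fold with the plasmid, to 52.7 ± 1.1 CPM, against 13.1 ± 0.02 CPM with the vector (adjusted p = 2.06e-16), and fell to 38.3 ± 4.4 CPM in resistant cells, against 74.4 ± 2.1 CPM in parental cells (adjusted p = 3.51e-09). PIAS1, a ligase that restrains this signalling, rose with the plasmid (log2 0.58 ± 0.03, adjusted p = 3.63e-11) and fell in resistant cells (log2 -0.52 ± 0.06, adjusted p = 7.78e-07). The receptor chain IFNGR1 fell in both: to 326 ± 9.4 CPM with the plasmid, against 397 ± 4.3 CPM with the vector (adjusted p = 4.92e-08), and to 209.8 ± 2.9 CPM in resistant cells, against 392 ± 1.0 CPM in parental cells (adjusted p = 1.58e-12). Its fall was deeper in resistant cells by the test of the difference (0.60 on the log2 scale, adjusted p = 1.26e-10).

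Interferons themselves were scarce. IFNG, IFNA1, IFNE and IFNW1, picked out after their values were seen, had 0 counts in all 12 libraries, which for each allows at most 0.132 CPM in the shallowest library. Of the 9 ligands, 1 passed the filter in the first experiment and 3 in the second. IFNL1, a type III interferon made by epithelia, rose to 1.68 ± 0.30 CPM with the plasmid, against 0.280 ± 0.12 CPM with the vector (log2 2.61 ± 0.28, adjusted p = 2.72e-07), and was at 2.15 ± 0.36 CPM in resistant cells and 1.63 ± 0.25 CPM in parental cells (adjusted p = 0.176). IFNL2 was called higher in resistant cells, at 0.548 ± 0.16 CPM, against 0.211 ± 0.04 CPM in parental cells (adjusted p = 0.0234), from few reads of a gene nearly identical to IFNL3, and the call was lost without resistant replicate 3 (adjusted p = 0.13) and without parental replicates a or c (adjusted p = 0.0549 and 0.0802).

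Of 8 genes of type I and III receptors and their signalling, 5 rose and 1 fell with the plasmid (median log2 0.83), beside 36.5% and 35.7% of all genes, and 5 fell and 0 rose in resistant cells (median log2 -0.68), beside 27.7% and 26.8%. Against a change over 1.5-fold, 4 were higher with the plasmid and 4 lower in resistant cells. With library sizes alone or upper quartile factors 2 were called higher there, ISG15 among them. STAT2 rose to 646 ± 2.8 CPM with the plasmid, against 262 ± 0.95 CPM with the vector (adjusted p = 1.48e-17), and fell to 560.3 ± 40 CPM in resistant cells, against 746 ± 5.2 CPM in parental cells (adjusted p = 4.28e-07). USP18, which restrains this receptor, was 2.92-fold higher with the plasmid (adjusted p = 2.67e-17) and fell by 0.68 on the log2 scale in resistant cells (adjusted p = 3.7e-11). The ubiquitin-like ISG15 rose 5.18-fold with the plasmid, to 663 ± 29 CPM, against 128 ± 4.8 CPM with the vector (adjusted p = 1.52e-18), yet was not called in resistant cells, at 1828 ± 224 CPM, against 1748 ± 28 CPM in parental cells (adjusted p = 0.368). It was called higher there with library sizes alone (adjusted p = 0.00174) and without resistant replicate 3 (adjusted p = 0.00529). Its change differed between the experiments (adjusted p = 2.86e-15).

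The lambda receptor chain IFNLR1 rose to 16.4 ± 0.63 CPM with the plasmid, against 8.29 ± 0.37 CPM with the vector (adjusted p = 1.1e-09), and fell to 6.24 ± 0.24 CPM in resistant cells, against 14.6 ± 1.0 CPM in parental cells (adjusted p = 2.24e-08). The type I receptor chains did not rise with the plasmid. IFNAR1 fell in both experiments (log2 -0.28 ± 0.03, adjusted p = 5.11e-07 with the plasmid; log2 -0.71 ± 0.06, adjusted p = 1.06e-08 in resistant cells), and IFNAR2 was not called with the plasmid (adjusted p = 0.608) and fell to 4.88 ± 0.06 CPM in resistant cells, against 12.6 ± 1.3 CPM in parental cells (adjusted p = 2.02e-08).

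Among 16 tested of 20 textbook targets of interferon-gamma outside the set, 14 rose and 1 fell with the plasmid (median log2 1.19), beside 36.5% and 35.7% of all genes. The untested PSMB8, PSMB9, FCGR1A and IFI30 averaged at most 0.327 CPM in that experiment. TAP1 and CXCL9, which rose, averaged under 1 CPM in both of its groups. With a filter of at least 1 CPM in 3 libraries, 12 of 14 rose. Of 15 tested in resistant cells 14 fell (median log2 -0.60), beside 27.7% of all genes, or 11 with library sizes alone. Against a change over 1.5-fold, 11 were higher with the plasmid and 7 lower in resistant cells. IDO1, which degrades tryptophan, had the largest fold change of the list with the plasmid. It rose to 59.5 ± 3.6 CPM with the plasmid, against 2.22 ± 0.36 CPM with the vector, 26.3-fold (adjusted p = 1.07e-17), and fell to 99.8 ± 4.3 CPM in resistant cells, against 374 ± 15 CPM in parental cells (adjusted p = 2.48e-15). BATF2, a transcription factor reported to partner IRF1, was 13-fold higher with the plasmid, at 85.8 ± 2.7 CPM, against 6.60 ± 0.54 CPM with the vector (adjusted p = 1.1e-18), and fell to 84.5 ± 4.4 CPM in resistant cells, against 140.5 ± 3.9 CPM in parental cells (adjusted p = 1.13e-09).

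PARP14, WARS1 and TRIM22 rose 2.36-fold to 2.78-fold with the plasmid (adjusted p = 4.76e-18, 1.33e-17 and 7.23e-17) and fell in resistant cells by 0.58, 0.22 and 0.60 on the log2 scale (adjusted p = 1.31e-09, 2.35e-06 and 2.55e-10). The WARS1 fall was lost with library sizes alone (adjusted p = 0.0709). The adhesion molecule ICAM1 behaved otherwise. It was at 1.06 ± 0.18 CPM with the plasmid and 1.097 ± 0.21 CPM with the vector (adjusted p = 0.853) but fell to 1.62 ± 0.13 CPM in resistant cells, against 12.5 ± 0.37 CPM in parental cells (log2 -2.95 ± 0.13, adjusted p = 6.32e-12), and the difference between these changes was 2.88 on the log2 scale (adjusted p = 2.77e-09).

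Of 15 tested partners of GBPs in cell-autonomous defence, 8 rose and 4 fell with the plasmid (median log2 0.20), beside 36.5% and 35.7% of all genes. In resistant cells 1 rose and 9 fell (median log2 -0.32), beside 26.8% and 27.7% of all genes, or 2 and 7 with library sizes alone. Against a change over 1.5-fold, 5 were higher and 1 lower with the plasmid, and 0 were higher and 2 lower in resistant cells. CASP1 and CASP4, the inflammatory caspases that act downstream of GBPs, rose with the plasmid (log2 0.88 ± 0.04 and 0.75 ± 0.03, adjusted p = 8.67e-13 and 7.93e-13). In resistant cells they fell by 0.80 and 0.78 on the log2 scale (adjusted p = 3.82e-10 and 1.13e-10). The DNA sensor AIM2 rose to 317 ± 10 CPM with the plasmid, against 151 ± 2.1 CPM with the vector (adjusted p = 3.81e-15), and fell in resistant cells (log2 -0.38 ± 0.04, adjusted p = 2.69e-07).

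SP110, a nuclear body protein, rose 3.03-fold with the plasmid (adjusted p = 1.07e-17) and fell by 0.42 on the log2 scale in resistant cells (adjusted p = 3.4e-07). UBE2L6, the conjugating enzyme of ISG15, rose 1.85-fold with the plasmid (adjusted p = 2.59e-14) and fell by 0.32 on the log2 scale in resistant cells (adjusted p = 2.29e-06), and RNF213, a giant ubiquitin ligase that coats bacteria, rose 1.36-fold with the plasmid (adjusted p = 2.06e-12) and fell by 0.53 on the log2 scale in resistant cells (adjusted p = 2.92e-08). PIM1, a kinase that phosphorylates GBP1 and holds it inactive, fell with the plasmid, to 149.8 ± 1.1 CPM, against 411 ± 0.45 CPM with the vector (log2 -1.46 ± 0.02, adjusted p = 8.93e-18), and fell to 117 ± 5.0 CPM in resistant cells, against 166 ± 3.3 CPM in parental cells (log2 -0.50 ± 0.04, adjusted p = 5.49e-08).

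**Figure D5:**
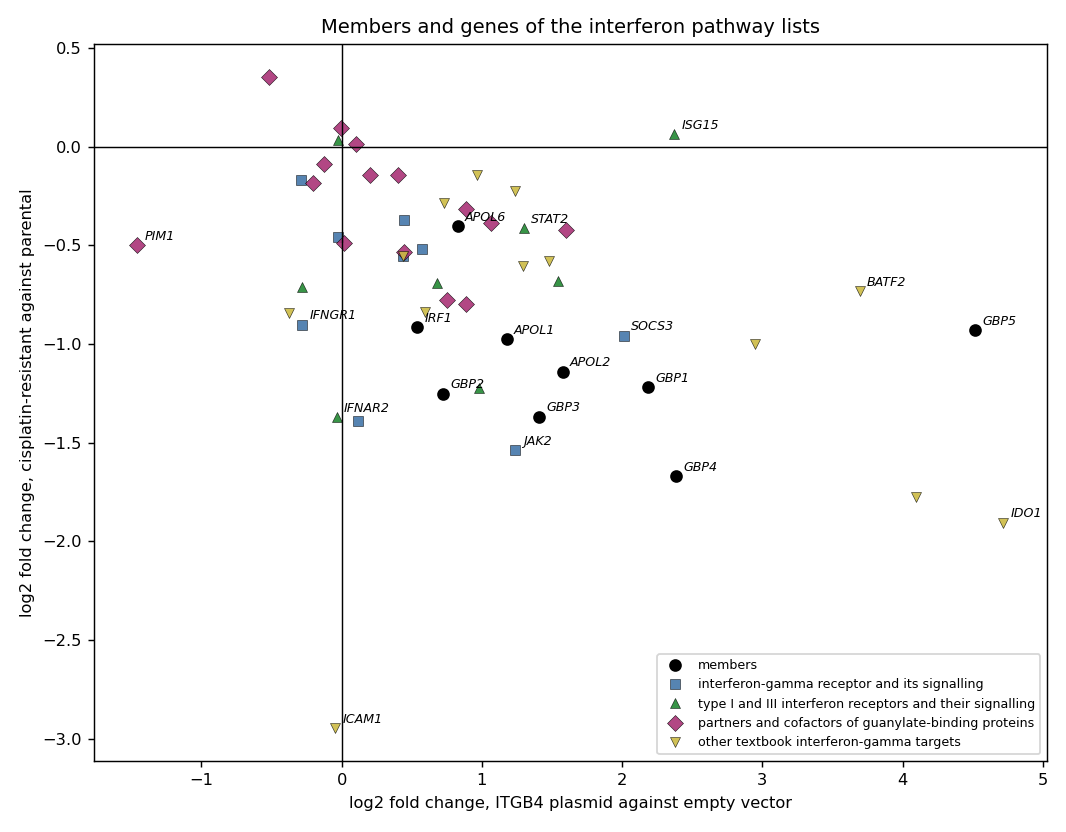
Log2 fold change with the plasmid (horizontal) against that in resistant cells (vertical) for the 9 detected genes of the set and the list genes shown, all tested in both experiments, 1 point per gene. Most points lie to the lower right, while ICAM1 sits at -0.05 and -2.95, ISG15 at 2.37 and 0.06, and PIM1 at -1.46 and -0.50.

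Across all lists, 62 genes outside the set were tested in the difference between the experiments. Among them, IFNB1 and PSMB9 passed the filter in neither experiment alone, IFNL2 and IFNL3 not in the first, and CXCL9 and TAP1 not in the second. Those genes could not be counted in the patterns that follow, so the shares of all genes have a stricter base. Of the 62, 29 rose with the plasmid and fell in resistant cells, a pattern that 16.6% of all 15655 genes tested in both showed. In the opposite direction, lower with the plasmid and higher in resistant cells, there was 1 list gene, against 13.4% of all genes. Higher in both was 1 list gene and lower in both were 7, against 7.11% and 7.72% of all genes. The change differed between the experiments for 48 of the 62, where 61.8% of all genes differed. The lists were drawn up with results for the set in view, so these shares are a description.

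For each of the 9 detected genes the genes with the most similar pattern over the 12 libraries were sought, by the root mean square difference of log2 CPM centred within each experiment, among 11524 candidates. IRF2 was among the nearest to IRF1, at 0.043, after SCCPDH at 0.038. Nearest to GBP1 were SERPINB1 (0.067) and ITPRIP (0.093), and to GBP3 CTSS (0.049) and UPK1B (0.056). LYN was among the nearest to GBP2, at 0.047. GBP4 was nearest to ABLIM3 (0.083) and LPCAT4 (0.099), and GBP5 to HERC5 (0.111) and OASL (0.143), both interferon-induced genes. APOL1 was nearest to AP5B1 (0.052) and EHD1 (0.054), APOL2 to TNFSF10 (0.035) and TENT5A (0.057), and APOL6 to LIMA1 (0.038) and NAPB (0.042). The larger distances of GBP5 go with its wider range of values.

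Sums of marker genes of other cell types, and of the urothelium, were set beside these changes. The 13 urothelial and epithelial markers summed to 6127 to 6583 CPM with the plasmid, against 4352 to 4536 CPM with the vector, and to 7376 to 8627 CPM in resistant cells, against 6938 to 7020 CPM in parental cells. Most of that sum was KRT7, KRT8, KRT18 and KRT19. Apart from KRT20, at 0, single markers went both ways. With the plasmid UPK1A, UPK2, UPK3A and EPCAM averaged lower and the others higher, UPK1B at 147 CPM, against 54.8 CPM with the vector. In resistant cells UPK1B, GATA3, PPARG and FOXA1 averaged lower and the others higher, UPK1B at 28.7 CPM, against 70.3 CPM in parental cells. The 10 leukocyte markers summed to 14.1 to 15.1 CPM with the plasmid, against 21.8 to 22.9 CPM with the vector, and to 15.04 to 15.9 CPM in resistant cells, against 20.4 to 24.0 CPM in parental cells, nearly all of it ITGAM. The 7 fibroblast markers summed to 24.5 to 26.1 CPM with the plasmid, against 48.3 to 52.3 CPM with the vector, and to 4.43 to 5.73 CPM in resistant cells, against 11.5 to 12.02 CPM in parental cells. In the first experiment most of that sum was COL3A1, at 18.2 CPM with the plasmid and 45.9 CPM with the vector, while COL1A1 was higher with the plasmid, at 6.89 CPM, against 4.05 CPM with the vector. In the second most of it was COL1A1, at 4.67 CPM in resistant and 11.7 CPM in parental cells, while COL3A1 was at 0.387 CPM in resistant and 0.0558 CPM in parental cells. The 5 endothelial markers reached at most 2.51 CPM in every library, and their sums overlapped between resistant and parental cells. The urothelial sum was thus higher, and the leukocyte and fibroblast sums lower, in plasmid and in resistant cells alike. The set was higher in plasmid cells and lower in resistant cells. The markers UPK1B, GATA3, PPARG and COL1A1 were called that way too, as were 16.6% of all genes tested in both experiments. UPK2, UPK3A and COL3A1 were called the opposite way, beside 13.4% of all genes. KRT7, KRT8 and KRT18 were called higher in both experiments and ITGAM lower in both, beside 7.11% and 7.72% of all genes. The part of these markers in the differences was not tested. In bulk RNA, a change in the share of cells that express a gene and a change in its RNA per cell cannot be told apart.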

How the data were processed

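Gene counts were deposited by the authors as 2 tables, 1 per experiment, with 6 libraries each. Per the file headers, read pairs of the first experiment were counted over exons with featureCounts 2.0.1 and Ensembl release 107, with no strand option. How the second table was counted is not given in the sources used here. Per the submitters' processing notes, the genome build is hg38. Libraries were made with a strand-marking kit, per the labels' protocols. Groups came from sample titles. The parental columns were assigned by inference, since the vector columns are in the other table.

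Genes passing edgeR's filterByExpr were tested within each table by the quasi-likelihood test with TMM factors (edgeR 4.0.16, R 4.3.3), adjusted by Benjamini-Hochberg over all genes tested, and called at an adjusted p under 0.05. The difference between experiments was tested in 1 fit of 12 libraries. The procedure was run on simulated data in which far fewer genes changed than were called here. That run does not show how it performs when changes are this widespread. Replicate pairs differed by more than sampling noise (chi-square per degree of freedom 1.54 to 12.2), so none was taken as a duplicate, and p-values cover the variation among these libraries alone, possibly technical. The common biological coefficient of variation was 2.65% in the first experiment and 6.97% in the second.

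The set, the lists and the rule for named genes were chosen with earlier results of these data known. The rule takes the set, each gene of the small family lists and, of each other list, up to 4 called genes per comparison with the smallest p. Some genes that the rule takes are not reported here. Also run were DESeq2 1.42.0, limma-voom 3.58.1, other scaling factors and filters, a 1.5-fold threshold, 1 fit of 12 libraries, a replicate block, leave-one-out fits, transcript lengths and looser motif letters.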

Additional observations from a re-analysis of the deposited data

How the results depend on the processing

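The 9 detected genes of the set kept their direction under each alternative run, which was largely fixed in advance because these contrasts chose them. Of their values 277 stayed on the same side of the threshold, while 1381 of 1500 values of other named genes kept side and sign. The 2 values of the set that did not were IRF1 with the plasmid and APOL6 in resistant cells, both when tested against a 1.5-fold change. Under that test 3818 genes were called with the plasmid (1880 higher, 1938 lower), against 12234, and 2107 in resistant cells (1042 higher, 1065 lower), against 9199. Leaving out 1 library at a time gave 11696 to 12389 calls with the plasmid, 8331 to 9024 in resistant cells and 10879 to 11591 for the difference, against 11442. With library sizes alone the difference was called higher in 4422 and lower in 7250 genes, and with upper quartile factors in 4615 and 6979, against 5585 and 5857.

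Scaling with library sizes alone turned the resistant log2 fold changes of APOL4 (0.059), IRF3 (0.040), IRF9 (0.026) and MYH9 (0.047), and upper quartile factors that of APOL4 (0.0011). Leaving out 1 library at a time turned 5 others at some library: ICAM1 with the plasmid (-0.173 to 0.109; 0.102 without vector replicate 1), IFNAR2 with the plasmid (-0.061 to 0.0022), IRF7 with the plasmid (-0.052 to 0.631), ISG15 in resistant cells (-0.025 to 0.149) and KYAT3 in resistant cells (-0.0089 to 0.096). None was called where its sign turned. Beyond a construction that uses fewer samples or another scaling, the cause was not tested. Looser motif letters found matches in the same number of promoters, 3 for ISRE and 2 for GAS.

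Same-numbered plasmid and vector libraries did not deviate together (correlations of -0.208, -0.202 and 0.028 over 6122 genes), so the numbers were not taken as pairs. Across numbers, plasmid 1 with vector 2 reached 0.238 and plasmid 2 with vector 1 reached 0.188, and the other crossed pairs lay between -0.116 and 0.085. Whether libraries with different numbers shared a batch was not tested. With a replicate block 12070 genes were called with the plasmid and 10919 for the difference. The parental columns carry no number that a label ties to a sample, so no paired fit was possible in the second experiment. GBP7, IRF7, IFNL2 and the vector levels of IFNL1, GBP6 and GBP5 (24, 58 and 318 counts over 3 libraries) rest on few counts, which limits their precision.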
